A study of Homo sapiens with 6 samples.

Results

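The genes described here are 37 genes of the autophagy machinery and its cargo receptors, out of 60612 genes in the deposited table. They were chosen by symbol, with earlier results of these data known, and each symbol matched 1 row. RNA was counted in 6 libraries of HepG2 cells, which were established from a human liver tumour. In 3 control libraries the cells had been infected with a lentivirus carrying a control shRNA, and in 3 knockdown libraries with a lentivirus carrying an shRNA against circPRKAA1, a circular RNA spliced from the PRKAA1 gene. All 6 samples carry the genotype label WT. The shRNA labels of the knockdown samples read circPRKAA1, circPRKAA2 and circPRKAA3 while their titles all name circPRKAA1, and grouping followed the titles. Separate cultures are not mentioned for the libraries within a group, and the p-values therefore reflect only how far these libraries spread, which may be technical.

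Autophagy delivers cytoplasm and organelles to the lysosome. The ULK1 kinase complex starts the process, a lipid kinase complex built around BECN1 and PIK3C3 marks the growing membrane, WIPI, ATG2 and ATG9 proteins feed lipid into it, and enzymes related to the ubiquitin system attach proteins of the ATG8 family (LC3 and GABARAP) to its lipids. Cargo receptors such as SQSTM1 (p62) bind ubiquitinated cargo and ATG8 proteins at the same time, and are degraded with the cargo. In liver the pathway is known for the turnover of lipid droplets, mitochondria and protein aggregates, and AMPK, whose catalytic subunit PRKAA1 encodes, is known to phosphorylate ULK1.

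The libraries held 16284262 to 20282496 counts. Circular RNAs are named in 0 rows, and the knockdown of the circle was not checked here. The linear host gene PRKAA1 had CPM (counts scaled to a common library size by TMM, a trimmed mean) of 31.8, 48.8 and 45.4 in control and of 82.4, 76 and 80.6 in knockdown libraries. Its counts do not check the knockdown of the circle. All 10 hepatocyte markers were measured, with summed levels of 27800 to 29200 CPM in control and 28400 to 29400 CPM in knockdown libraries. Markers of fibroblasts (5 genes) summed to at most 4.27 CPM, those of endothelium (4 genes) to at most 7.44 CPM and those of leukocytes (5 genes) to 1.51 to 2.94 CPM in control and 4.33 to 4.92 CPM in knockdown libraries. KDR and MS4A1 were at 0 in every library, CD14 was called higher (log2 change 1.19) and PDGFRB lower (-0.65), and the part of these markers in the results was not tested. Control library 1 stood apart from control library 2 (chi-square per degree of freedom of 16.1, against 3.82 to 7.43 for the other pairs within a group), and its counted genes had the highest mean GC content (50.7%, against 49.9% and 50.3% in the other control libraries and 48.8 to 49.0% in the knockdown libraries).

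Most of the autophagy genes were higher in the knockdown libraries. Of the 37 genes 35 had enough counts to be tested, with 40 or more counts in every library. ULK2 (0, 2 and 0 counts in control, 1, 0 and 0 in knockdown libraries) and MAP1LC3A (3, 4 and 0 counts against 0, 2 and 1) were near or below the 3 counts that a count of 0 allows, and no fold change is given for them. By edgeR's quasi-likelihood test with Benjamini-Hochberg adjustment over all tested genes (threshold 0.05), 26 of the 35 rose, 3 fell and 6 did not pass, so that 82.9% were called beside 68.4% of all genes. By direction, 74.3% were higher and 8.57% lower, beside 36.1% higher and 32.4% lower among all 14990 genes tested. The median log2 fold change, knockdown over control, was 0.54 for the 35 genes and 0.05 for all genes. A change of 2-fold or more was called for 5 of the 35 genes, all higher (GABARAPL1, WIPI1, ATG2B, OPTN and RB1CC1). That share is close to the 14.1% of all genes that were higher by that size, and 7.99% of all genes were lower by it. Every knockdown library lay above every control library for 25 of the 35 genes, beside 38.0% of all genes, and below for 3, beside 34.1%. In RNA from whole cultures, a change in the number of cells that express a gene and a change in RNA per cell cannot be told apart.

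**Figure D1:**
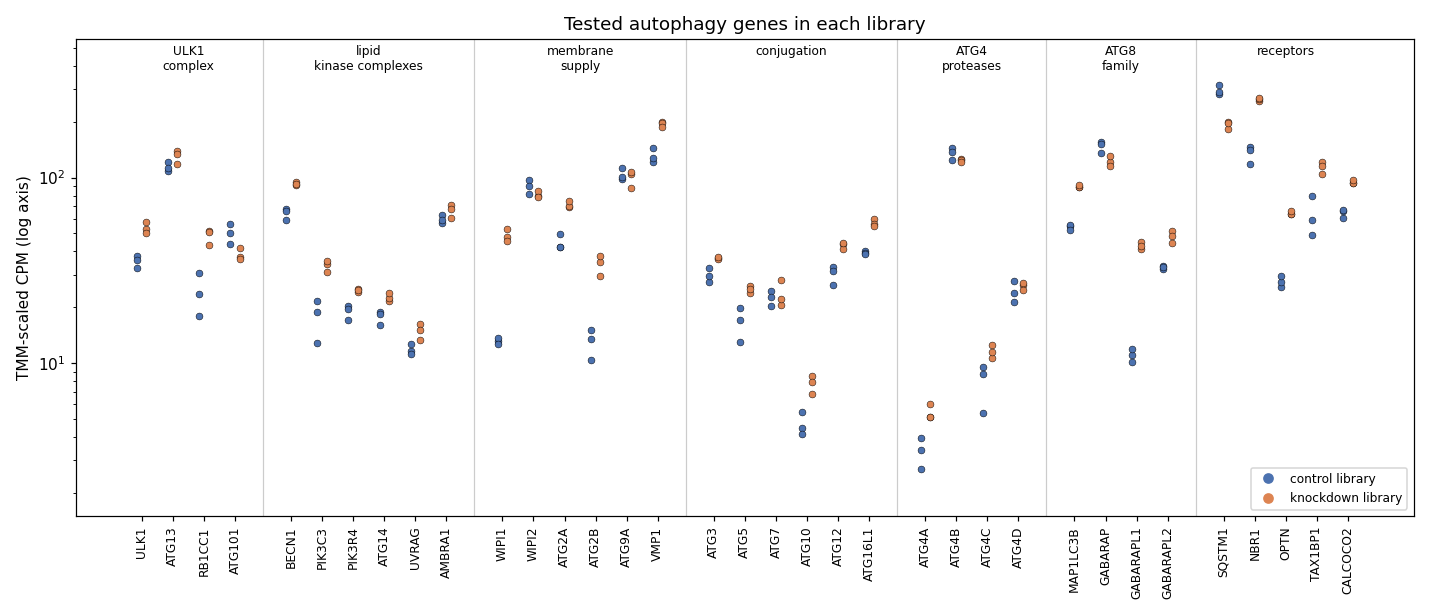
TMM-scaled CPM on a log axis for the 35 tested autophagy genes, ordered by role, with 1 point per library (3 control and 3 knockdown). The knockdown points lie above all control points for 25 genes and below them for SQSTM1, GABARAP and ATG101.

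Counts in these libraries followed base composition, and the autophagy genes have to be read against that. The median log2 change was 0.57 over all 2247 genes with a transcript of at most 40% GC, and -0.34 over the 2204 genes above 60% GC. The tested autophagy genes had a median GC content of 46.9%, against 48.8% for all tested genes, and a median exonic length of 6414 bases against 4655. Across the 35 genes GC content and log2 change had a Spearman correlation of -0.44, and across the 14863 tested genes with a GC value one of -0.37. These are descriptions across genes that share the same 6 libraries. The place of control library 1 among the controls also followed GC content: for 15 of 16 autophagy genes of up to 45% GC it was the lowest of the 3, as it was for 72.6% of all genes of that class, while above 45% GC it was the highest for 13 of 19, beside 54.2% of all genes.

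Set against the median of their GC class, 29 of the 35 autophagy genes lay above it. In the class of up to 40% GC the 7 autophagy genes had the same median as all genes (0.57), and 4 lay above it. In the class from 40 to 45% GC all 9 lay above the class median of 0.28, with a median of 0.69. Over 60% GC, all 4 (ATG2A, ULK1, ATG4B and ATG4D) lay above the class median of -0.34, with a median of 0.35. When each library was given offsets for GC content and exonic length, 24 of the 35 genes passed as higher and 1 (SQSTM1) as lower, beside 35.2% and 33.6% of all genes, and the median was 0.29 beside 0.03. Among the 29 calls, 22 kept their direction, 7 were lost (ATG101, VMP1, ATG3, ATG5, ATG12, ATG4C and GABARAP) and 0 turned to the opposite call.

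**Figure D2:**
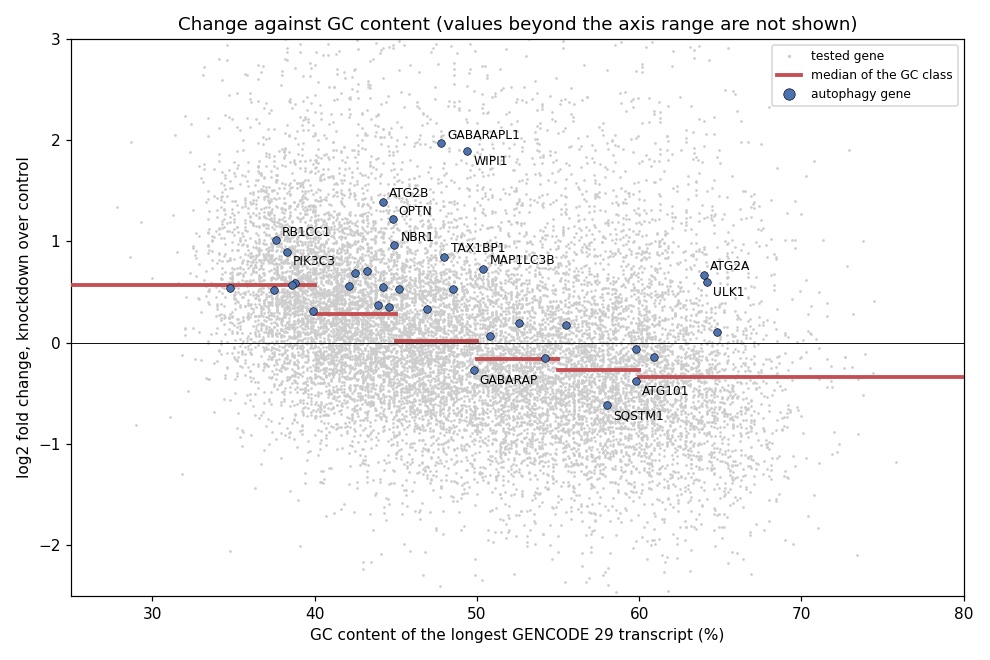
Log2 fold change (knockdown over control) against the GC content in percent of the longest transcript, for all tested genes (grey) and the 35 tested autophagy genes (blue), with the median of each GC class as a red line. The class medians go from 0.57 at up to 40% GC to -0.34 over 60% GC, and GABARAPL1, WIPI1, ATG2A and ULK1 lie well above theirs.

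The promoters of 4 genes are shown because their transcripts mark the extremes: GABARAPL1 and WIPI1 rose most, and SQSTM1 fell most, while GABARAP is the paralog of GABARAPL1 that did not rise. Each window runs from 250 bases before to 50 bases after the first transcribed base, 5′ to 3′ on the strand of the gene, from RefSeq (GRCh38.p14). GABARAPL1 is read from chr12:10212627-10212926 (plus strand), GABARAP from chr17:7242400-7242699 (minus strand), WIPI1 from chr17:68457447-68457746 (minus strand) and SQSTM1 from chr5:179806143-179806442 (plus strand). Capitals mark the matches to the motifs searched: the GC box (GGGCGG), the CCAAT box and the cAMP response element (TGACGTCA).
GABARAPL1: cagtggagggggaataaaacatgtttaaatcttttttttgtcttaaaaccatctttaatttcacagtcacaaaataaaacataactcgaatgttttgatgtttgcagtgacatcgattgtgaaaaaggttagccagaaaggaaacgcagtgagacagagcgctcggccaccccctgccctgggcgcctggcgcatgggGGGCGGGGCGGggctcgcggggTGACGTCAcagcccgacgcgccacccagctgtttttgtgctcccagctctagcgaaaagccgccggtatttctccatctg
GABARAP: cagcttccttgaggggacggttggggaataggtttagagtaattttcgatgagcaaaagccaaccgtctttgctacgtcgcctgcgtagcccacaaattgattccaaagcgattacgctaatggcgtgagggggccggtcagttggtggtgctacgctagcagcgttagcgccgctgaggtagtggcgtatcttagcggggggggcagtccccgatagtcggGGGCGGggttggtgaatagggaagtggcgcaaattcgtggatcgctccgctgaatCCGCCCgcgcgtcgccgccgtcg
WIPI1: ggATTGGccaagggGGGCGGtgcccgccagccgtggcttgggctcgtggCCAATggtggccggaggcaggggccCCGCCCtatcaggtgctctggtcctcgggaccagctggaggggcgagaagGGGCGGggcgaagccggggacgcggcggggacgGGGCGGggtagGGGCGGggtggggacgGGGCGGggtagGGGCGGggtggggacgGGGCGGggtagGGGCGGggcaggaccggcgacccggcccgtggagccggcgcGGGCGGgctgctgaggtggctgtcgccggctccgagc
SQSTM1: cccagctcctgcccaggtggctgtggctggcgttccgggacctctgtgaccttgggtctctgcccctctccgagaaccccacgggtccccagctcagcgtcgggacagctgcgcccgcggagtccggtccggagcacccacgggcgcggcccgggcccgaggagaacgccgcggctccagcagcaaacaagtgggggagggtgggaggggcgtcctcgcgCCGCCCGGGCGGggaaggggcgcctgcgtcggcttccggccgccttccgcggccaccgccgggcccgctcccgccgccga
The WIPI1 window holds 10 GC boxes, several of them within a repeated unit, and 2 CCAAT boxes. GABARAPL1 has 2 overlapping GC boxes and, starting 30 bases before the first transcribed base of this window, a cAMP response element. The whole GABARAPL1 window lies inside the annotated gene, which starts at 10212458 in the deposited table. GABARAP and SQSTM1 have 2 GC boxes each.

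A window was found for 33 of the 37 genes, and 9 motifs were searched on both strands as exact letters. Where a gene had several windows, that of lowest coordinate was used. Some windows lie inside the annotated gene, on either strand. Those of ATG5 (106316217 to 106316516, in a minus-strand gene that starts at 106325791) and AMBRA1 (46587395 to 46587694, from 46594125) are examples. On the plus strand, so are those of MAP1LC3B (87392086 to 87392385, from 87383953) and ATG16L1 (233251423 to 233251722, from 233210051). The GC box was in 21 of 33 windows (63.6%), beside 44.95% of all 35116 windows, and the member windows were richer in GC (median 63.3% against 58.7%). CCAAT was in 11 (33.3%, beside 34.6% of all windows). The E-box core CACGTG was in 2 (ATG14 and ATG3, beside 7.26%), and TCACGTGA, the extended E-box that TFEB is known to bind and which contains the core, was in 1 (ATG3, beside 0.98%). The antioxidant response element core TGACNNNGC was in 3 (ATG101, CALCOCO2 and MAP1LC3B, beside 13.35%), the forkhead motif GTAAACA in 1 (CALCOCO2, beside 3.42%) and the cAMP response element in 1 (GABARAPL1, beside 1.85%). AP-1 (TGANTCA) and the CEBP-ATF composite element (TGATGNAA) had 0 matches in the member windows and were in 7.71% and 3.62% of all windows. A match is a run of letters and not a measured site.

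In the ULK1 complex 3 of 4 tested genes rose and 1 fell, beside 36.1% higher and 32.4% lower among all genes. This and the later role groups hold only 4 to 6 tested genes each. ULK1, the kinase that starts autophagosome formation (chromosome 12, 131894622 to 131923150, GRCh38), stood at 37.8, 32.4 and 35.8 CPM in control and at 52.7, 50.3 and 57.7 CPM in knockdown libraries. The groups did not overlap, and the log2 change was 0.60 (SE 0.09; BH-adjusted p = 2.01e-05 in edgeR). ULK1 is GC-rich (64.2%), and with the offsets for GC content and length its change was 0.83. RB1CC1 (FIP200), the scaffold of the complex, stood at 17.9, 30.6 and 23.7 CPM against 51.4, 43.1 and 51.2 CPM. All knockdown libraries were higher, control library 1 was the lowest, and the log2 change was 1.01 (SE 0.14; BH-adjusted p = 1.14e-05 in edgeR). At 37.6% GC it is among the AT-rich transcripts, and with the offsets the change was 0.46 (adjusted p = 5.73e-05 in edgeR).

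ATG13, the adaptor that links ULK1 to RB1CC1, had 122, 109 and 113 CPM in control and 119, 139 and 134 CPM in knockdown libraries. The groups overlap, and its change of 0.19 passed narrowly (adjusted p = 0.0474 in edgeR, with a range of 1e-04 to 0.286 over 18 alternatives). Of these alternatives 8 ended the call, among them the fits without control replicate 2, control replicate 3, knockdown replicate 2 or knockdown replicate 3. ATG101, which stabilises ATG13, fell from 56.0, 43.7 and 50 CPM to 37.1, 41.8 and 36.2 CPM. Its log2 change was -0.38 (SE 0.10; BH-adjusted p = 0.00314 in edgeR), and -0.04 with the offsets (adjusted p = 0.578 in edgeR) and -0.08 with TPM-like scaling, under which it did not pass (range of adjusted p 3.25e-05 to 0.604 over the alternatives).

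Among the 6 genes of the lipid kinase complexes 5 rose and 0 fell, beside 36.1% higher and 32.4% lower among all genes. BECN1, the regulatory subunit that BCL2 proteins bind, stood at 59.2, 67.8 and 65.9 CPM in control and at 91.4, 94.6 and 92.7 CPM in knockdown libraries (log2 change 0.53 ± 0.08, SE; adjusted p = 1.62e-05 in edgeR). PIK3C3 (VPS34), the lipid kinase itself, stood at 12.8, 21.7 and 18.8 CPM against 34.1, 31.1 and 35.3 CPM. Its groups did not overlap, its log2 change was 0.90 (SE 0.14; BH-adjusted p = 3.44e-05 in edgeR), and with the offsets it was 0.26 (adjusted p = 0.0121 in edgeR), for a transcript of 38.3% GC. PIK3R4 (VPS15), the pseudokinase partner of PIK3C3, rose from 17.1, 20.3 and 19.6 CPM to 24.1, 25.2 and 24.7 CPM, by 0.37 on the log2 scale, and by 0.22 with the offsets.

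ATG14 directs the kinase complex to the autophagosome, and UVRAG takes its place in the complex of the endosome. ATG14 had 16.0, 18.8 and 18.3 CPM in control and 21.7, 22.4 and 23.9 CPM in knockdown libraries (log2 change 0.35, adjusted p = 0.00723 in edgeR). UVRAG had 11.6, 12.6 and 11.2 CPM against 13.3, 16.3 and 15 CPM (log2 change 0.33, adjusted p = 0.0205 in edgeR, with a range of 0.000814 to 0.22 over the alternatives). Neither gene's groups overlapped, but 6 of 18 alternatives ended the call of UVRAG, among them the fits without control replicate 3, knockdown replicate 2 or knockdown replicate 3. AMBRA1, a scaffold that binds BECN1, did not pass at 59.4 ± 2.77 and 66.6 ± 5.54 CPM (SD, n = 3 each; log2 change 0.17, adjusted p = 0.088 in edgeR), and it passed as higher in 10 of 18 alternatives (range of adjusted p 0.00018 to 0.377).

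Of the 6 genes of membrane supply 4 rose and 0 fell, beside 36.1% higher and 32.4% lower among all genes. WIPI1, which binds the lipid made by PIK3C3 (chromosome 17, 68420948 to 68457513), stood at 13.2, 13.7 and 12.6 CPM in control and at 48.1, 52.8 and 45.5 CPM in knockdown libraries. The 3 control values lie within about 1 CPM of each other, and the log2 change of 1.89 (SE 0.10; BH-adjusted p = 2.55e-10 in edgeR) is larger than that of 95.8% of all tested genes. It was 2.03 with the offsets. WIPI1 shares 828 exonic bases with ARSG on the other strand, and ARSG went from 5.37 to 21.9 CPM (log2 change 2.03). The strand setting of the counting is not given in the sources used here, so reads of the 2 genes in the shared bases cannot be told apart. A like limit holds for the 21 autophagy genes that share exonic bases with another gene. ATG9A (1833 bases with AC068946.2), GABARAP (691 with AC120057.2) and VMP1 (72 with MIR21) share bases on the same strand, where no strand setting would separate the reads. Of the 21 genes, ATG2B shares 419 bases with GSKIP (12.5 to 22.6 CPM, log2 change 0.84) and ATG3 shares 151 with SLC35A5 (13.8 to 29.4 CPM, log2 change 1.08), and both neighbours rose. Other neighbours of genes that rose went the opposite way. ATG10, at 4.7 CPM in control, shares 374 bases with RPS23, which fell from 1420 to 789 CPM (log2 change -0.85). FBXO31 (150 bases shared with MAP1LC3B, log2 change -0.89), PSME3 (300 with BECN1, -0.62) and AP3S1 (378 with ATG12, -0.31) also fell. WIPI2, the paralog that recruits the ATG16L1 complex, did not pass, at 89.4 ± 7.62 and 80.7 ± 3.26 CPM (SD, n = 3 each; log2 change -0.15 ± 0.08, SE; adjusted p = 0.118 in edgeR), and its sign turned with the scaling, up to 0.15 with TPM-like scaling.

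ATG2A and ATG2B carry lipid from the endoplasmic reticulum to the growing membrane. ATG2A stood at 49.4, 42.5 and 42.4 CPM against 69.0, 70.6 and 74.7 CPM, a log2 change of 0.67 (SE 0.08; BH-adjusted p = 3.11e-06 in edgeR), or 0.89 with the offsets, for a transcript of 64.0% GC. ATG2B had 10.4, 13.4 and 15.1 CPM in control and 35.2, 29.4 and 37.7 CPM in knockdown libraries (log2 change 1.39 ± 0.13, SE; adjusted p = 1.64e-07 in edgeR), or 1.06 with the offsets. Neither paralog's groups overlapped. VMP1, a lipid scramblase of the endoplasmic reticulum, stood at 122, 145 and 127 CPM against 199, 197 and 188 CPM (log2 change 0.57, adjusted p = 8.18e-06 in edgeR). At 38.6% GC, its change with the offsets was 0.09 (adjusted p = 0.131 in edgeR). VMP1 contains the microRNA gene MIR21 (72 shared bases), whose own row held 0 CPM in both groups. ATG9A, the scramblase of the vesicles that seed the membrane, did not pass (113, 97.7 and 101 CPM against 88.1, 104 and 107 CPM, which overlap; log2 change -0.06, adjusted p = 0.534 in edgeR), and its sign turned in 8 of 18 alternatives, with a call as higher at 0.21 with the offsets (adjusted p = 0.00491 in edgeR, over alternatives at most 0.949).

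Of the 6 conjugation genes 5 rose and 0 fell, beside 36.1% higher and 32.4% lower among all genes. Of the 5 calls 3 were lost with the offsets. ATG16L1, which places the conjugation enzymes on the membrane, stood at 40.1, 39.2 and 38.8 CPM in control and at 59.5, 56.0 and 54.7 CPM in knockdown libraries. Both groups were tight, and the log2 change was 0.53 (SE 0.08; BH-adjusted p = 2.19e-05 in edgeR), or 0.55 with the offsets. ATG10, the enzyme that passes ATG12 to ATG5, was at the low levels of 4.48, 5.47 and 4.14 CPM and rose to 6.79, 8.55 and 7.86 CPM (log2 change 0.71, adjusted p = 0.000888 in edgeR), or 0.53 with the offsets.

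ATG12 and ATG5 are the ubiquitin-like protein and its target, and ATG3 passes ATG8 proteins to the lipid. ATG12 had 26.3, 32.9 and 31.3 CPM against 43.9, 41.3 and 44.6 CPM (log2 change 0.52, adjusted p = 0.000174 in edgeR). ATG5 had 13, 19.7 and 17 CPM against 26.0, 23.9 and 25.2 CPM (log2 change 0.59, adjusted p = 0.00077 in edgeR). ATG3 had 27.3, 32.5 and 29.4 CPM against 36.9, 36.4 and 37.3 CPM (log2 change 0.31, adjusted p = 0.00763 in edgeR). None of the 3 genes had overlapping groups, all 3 transcripts are of less than 40% GC, and control library 1 was the lowest for each. With the offsets their changes were -0.06, 0.16 and -0.08, and edgeR adjusted p-values were 0.382, 0.103 and 0.321. The call of ATG3 was also lost without control replicate 3. ATG7, the activating enzyme of both conjugation routes, did not pass (22.5 ± 2.07 and 23.6 ± 3.96 CPM, SD, n = 3 each; log2 change 0.07, adjusted p = 0.623 in edgeR), and its sign turned without control replicate 2 or without knockdown replicate 2.

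The 4 ATG4 proteases cut ATG8 proteins before they are attached to lipid and free them again later. ATG4A rose from 2.67, 3.38 and 3.92 CPM to 5.10, 5.14 and 5.99 CPM (log2 change 0.69 ± 0.18, SE; adjusted p = 0.00284 in edgeR). ATG4C had 5.35, 9.48 and 8.73 CPM in control and 12.5, 10.7 and 11.4 CPM in knockdown libraries (log2 change 0.54, adjusted p = 0.00985 in edgeR), without overlap. At 34.8% GC it is the most AT-rich of the 35 tested transcripts, and its change with the offsets was 0.00 (adjusted p = 0.989 in edgeR). Its call was also lost without knockdown replicate 1. ATG4B, the most abundant of the 4 (19.1 ± 1.08 FPKM in control libraries, SD, n = 3), did not pass (145, 125 and 138 CPM against 126, 124 and 121 CPM, which overlap; log2 change -0.14, adjusted p = 0.111 in edgeR), with a sign that turned in 7 of 18 alternatives. ATG4D did not pass either (24.3 ± 3.17 and 26.1 ± 1.14 CPM; log2 change 0.11, adjusted p = 0.386 in edgeR), but at 64.8% GC it passed as higher with the offsets (0.54, adjusted p = 1.99e-06 in edgeR, over alternatives at most 0.85).

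In the ATG8 family 3 of 4 tested genes rose and 1 fell, beside 36.1% higher and 32.4% lower among all genes. GABARAPL1 (chromosome 12, 10212458 to 10223128), a GABARAP-type ATG8 protein whose transcript is known from mouse muscle to respond to FOXO factors, stood at 11, 11.9 and 10.1 CPM in control libraries and at 41.4, 44.7 and 43.0 CPM in knockdown libraries. The lowest knockdown library is far above the highest control library. The log2 change of 1.97 (SE 0.10; BH-adjusted p = 2.27e-10 in edgeR), a fold of 3.91, was the largest among the 35 genes and larger than that of 96.3% of all tested genes, and was 2.03 with the offsets. MAP1LC3B, the LC3 protein most used as an autophagosome marker, rose from 55.1, 55.3 and 52.2 CPM to 89.0, 89.5 and 90.9 CPM (log2 change 0.73 ± 0.07, SE; adjusted p = 2.96e-07 in edgeR), or 0.83 with the offsets. A near-identical copy, MAP1LC3B2 (98.5% identity over 411 bases), holds 289 counts over the 6 libraries, so the split of reads between them is uncertain.

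GABARAPL2 (GATE-16) stood at 32.0, 33.3 and 32.9 CPM in control and at 51.8, 48.5 and 44.4 CPM in knockdown libraries, without overlap (log2 change 0.56 ± 0.09, SE; adjusted p = 3.19e-05 in edgeR). GABARAP, the founding member of its branch, went the other way, from 156, 135 and 152 CPM to 121, 130 and 116 CPM (log2 change -0.27 ± 0.08, SE; adjusted p = 0.00587 in edgeR). All 3 knockdown libraries were lower, but the gap between the groups is small, with 130 against 135 CPM. This call was lost with the offsets (-0.04, adjusted p = 0.552 in edgeR), with library totals and with quantile normalization, and the sign turned with TPM-like scaling (0.02, adjusted p = 0.759 in edgeR, within a range from 0.000163).

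Per exonic length and library total (FPKM), GABARAP was the most abundant ATG8 transcript in both groups, at 70.6 ± 4.26 in control and 67.2 ± 2.99 in knockdown libraries (SD, n = 3 each). MAP1LC3B (10.0 ± 0.36 FPKM) and GABARAPL2 (10.2 ± 0.359 FPKM) did not differ beyond their spread in control libraries, and GABARAPL1 lay below them at 2.54 ± 0.23 FPKM. In knockdown libraries MAP1LC3B was at 19.1 ± 0.408, GABARAPL2 at 17.2 ± 1.33 and GABARAPL1 at 11.4 ± 0.299 FPKM. The share of GABARAP in the summed FPKM of the family went from 75.5 ± 1.85% to 58.5 ± 1.07%, that of GABARAPL1 from 2.72 ± 0.343% to 9.91 ± 0.405%, that of MAP1LC3B from 10.8 ± 0.748% to 16.6 ± 0.835% and that of GABARAPL2 from 10.9 ± 0.768% to 14.9 ± 0.947% (SD, n = 3 each). The summed FPKM of the family was 93.5 ± 3.42 in control and 115 ± 3.31 in knockdown libraries.

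**Figure D3:**
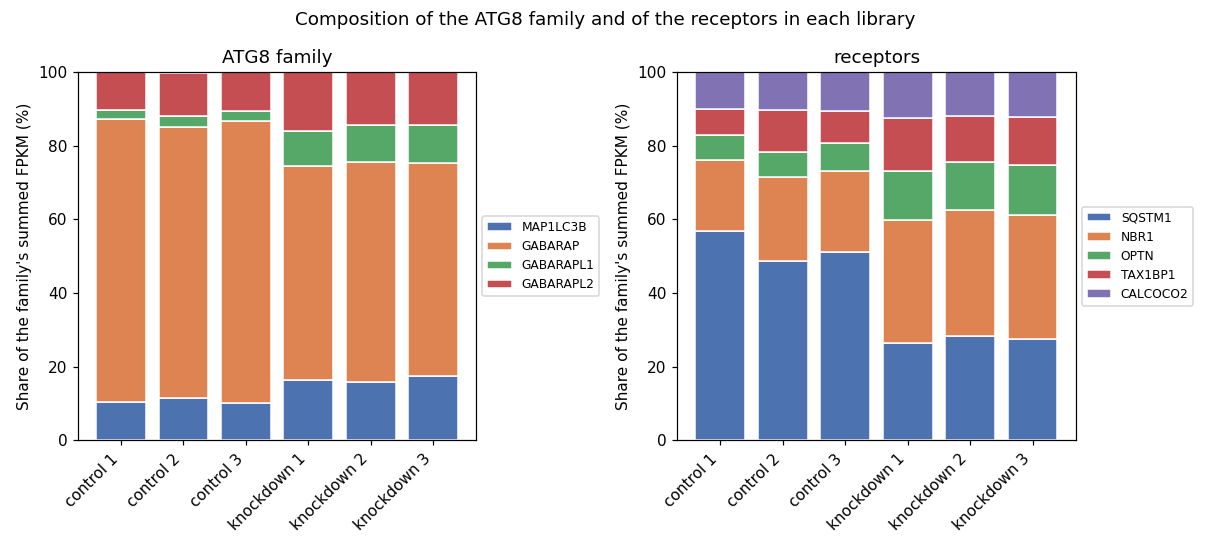
Share in percent of the summed FPKM of the ATG8 family (left, without MAP1LC3A, which holds at most 0.191%) and of the 5 receptors (right) in each of the 6 libraries, stacked by gene. In the knockdown libraries GABARAP holds 57.7 to 59.7% (73.4 to 76.6% in control) and SQSTM1 26.4 to 28.4% (48.8 to 56.9% in control).

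Among the 5 cargo receptors 4 rose, while SQSTM1 fell, beside 36.1% higher and 32.4% lower among all genes. SQSTM1 (p62; chromosome 5, 179806398 to 179838078) stood at 316, 283 and 291 CPM in control and at 183, 199 and 197 CPM in knockdown libraries. Every knockdown library was far below every control library. The log2 change was -0.62 (SE 0.07; BH-adjusted p = 1.29e-06 in edgeR), -0.46 with the offsets and -0.33 with TPM-like scaling, and it passed as lower in all 18 alternatives. SQSTM1 shares 1582 exonic bases with MRNIP on the other strand, which went from 14.1 to 23.5 CPM, the opposite way, and 105 with MGAT4B, also on the other strand, which went from 208 to 130 CPM, the same way (log2 change -0.68).

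NBR1, the receptor most related to SQSTM1, stood at 118, 147 and 141 CPM against 258, 266 and 269 CPM (log2 change 0.96 ± 0.08, SE; adjusted p = 4.27e-08 in edgeR). OPTN, a receptor for mitochondria and bacteria that TBK1 phosphorylates, had 25.8, 27.2 and 29.4 CPM against 63.4, 63.3 and 65.9 CPM (log2 change 1.22 ± 0.08, SE; adjusted p = 4.31e-09 in edgeR). In both genes the knockdown libraries were within a few percent of each other and above all control libraries, and with the offsets the changes were 0.78 and 1.12. TAX1BP1, a receptor that works with NBR1 on ubiquitin condensates, had 48.9, 80 and 59.4 CPM against 121, 105 and 115 CPM (log2 change 0.85 ± 0.13, SE; adjusted p = 2.26e-05 in edgeR). CALCOCO2 (NDP52), known for the capture of bacteria and mitochondria, had 60.9, 65.7 and 67.2 CPM against 93.5, 94.0 and 97.1 CPM (log2 change 0.55 ± 0.07, SE; adjusted p = 7.06e-06 in edgeR), or 0.33 with the offsets. The control libraries of TAX1BP1 spread more than those of the other receptors, and neither gene's groups overlapped.

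By FPKM, SQSTM1 was the most abundant receptor in control libraries (36.7 ± 1.58, SD, n = 3), above NBR1 (15.1 ± 1.9). In knockdown libraries the order of the pair was turned, with NBR1 at 33.7 ± 0.814 and SQSTM1 at 27.4 ± 1.09 FPKM. FPKM was not adjusted for GC content, which is 44.9% for NBR1 and 58.0% for SQSTM1, and the order under such an adjustment was not tested. CALCOCO2 (7.27 ± 0.46) and TAX1BP1 (6.41 ± 1.71) did not differ beyond their spread in control libraries, nor did TAX1BP1 and OPTN (4.99 ± 0.37 FPKM). OPTN (13.4 ± 0.456) and TAX1BP1 (13.3 ± 1.15) did not differ beyond their spread in knockdown libraries, nor did TAX1BP1 and CALCOCO2 (12.2 ± 0.373 FPKM). SQSTM1 held 52.2 ± 4.20% of the summed receptor FPKM in control and 27.4 ± 0.974% in knockdown libraries. FPKM rests on the exonic length given in the table, which is the length over all annotated exons and not that of the transcripts present.

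**Figure D4:**
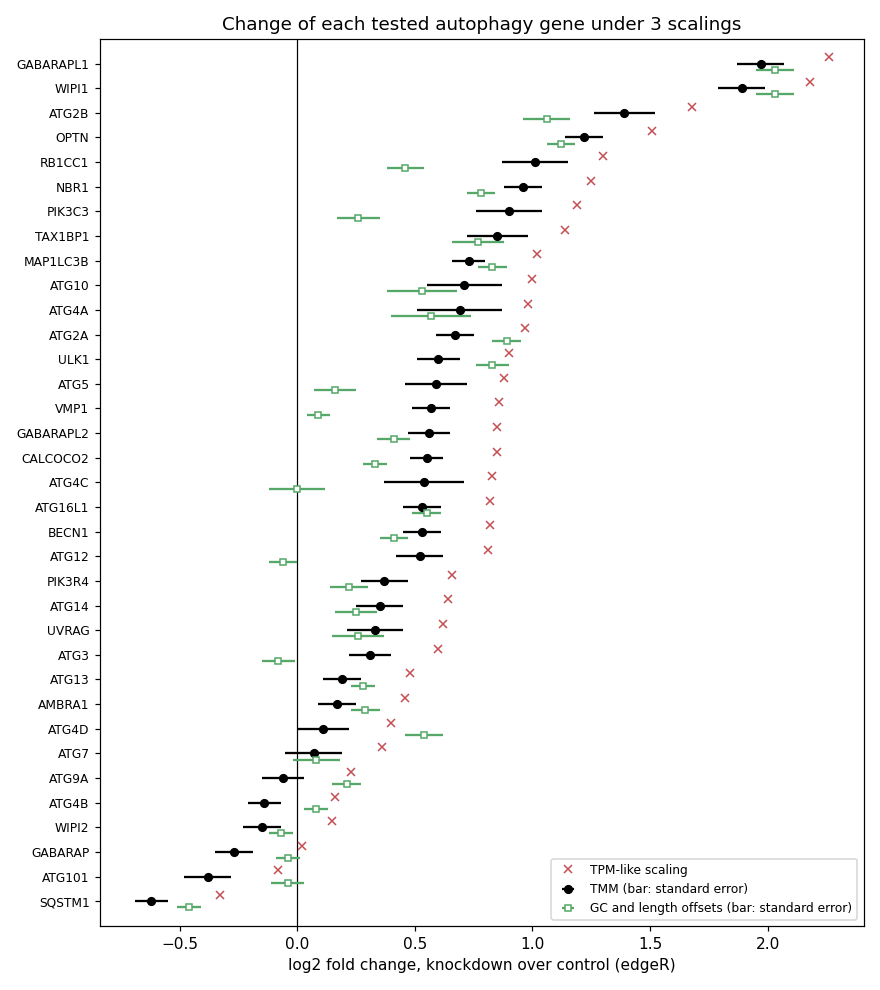
Log2 fold change (knockdown over control) of the 35 tested autophagy genes by edgeR with TMM scaling (black, bars are standard errors), with GC and length offsets (green, bars are standard errors) and with TPM-like scaling (red crosses). GABARAPL1 and WIPI1 lie near 2 under all 3, SQSTM1 lies below 0 under all 3, and RB1CC1, PIK3C3, ATG5, VMP1, ATG12 and ATG4C move towards 0 with the offsets.

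Ratios between paralogs within a library do not depend on how the libraries are scaled, apart from the small pseudocount. The log2 ratio of FPKM (+ 0.01) of WIPI1 to WIPI2 was -1.47, -1.17 and -1.44 in control and 0.68, 0.72 and 0.62 in knockdown libraries. WIPI1 was thus below WIPI2 in every control library and above it in every knockdown library, a difference of 2.03. The log2 ratio of GABARAPL1 to GABARAP went from -4.88, -4.56 and -4.95 to -2.61, -2.59 and -2.48, a difference of 2.24. MAP1LC3B and GABARAPL2 against GABARAP differed by 1.00 and 0.83, ATG2B against ATG2A by 0.72, and ATG4A, ATG4C and ATG4D against ATG4B by 0.85, 0.73 and 0.25. Without control replicate 1 the difference for ATG4C against ATG4B was 0.43. In these 8 pairs the groups did not overlap. Among single genes the groups did not overlap for 72.1% of all those tested, and the share among ratios of other gene pairs was not computed. The exact two-sided permutation test gave p = 0.10 for each, which is the smallest p that 3 against 3 libraries allow, and 0.111 after Benjamini-Hochberg adjustment over 10 pairs, so none can pass 0.05. The other pairs hold ULK2 or MAP1LC3A and have too few counts. ATG4C and ATG4B differ in GC content by far (34.8% and 60.9%), as do ATG2B and ATG2A (44.2% and 64.0%), while GABARAPL1 and GABARAP (47.8% and 49.8%) and WIPI1 and WIPI2 (49.4% and 54.2%) are closer.

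**Figure D5:**
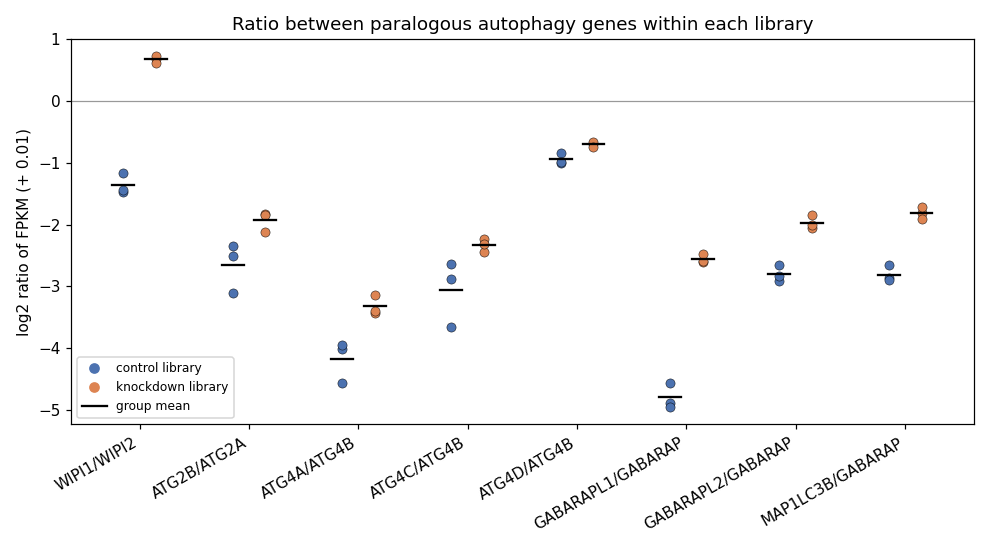
Log2 ratio of FPKM (+ 0.01) between paralogous autophagy genes within each library, with 1 point per library and a bar at the group mean. The groups do not overlap in any of the 8 pairs, as they do not for 72.1% of all single genes tested. The ratio of WIPI1 to WIPI2 passes from below 0 in the control libraries to above 0 in the knockdown libraries.

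Other genes of the pathway were read from a list of 60, of which 55 were tested. Of these 31 rose, 10 fell and 14 did not pass, beside 36.1% higher and 32.4% lower among all genes, and their median log2 change was 0.24. With the offsets their median was 0.25, close to the 0.29 of the 35 tested autophagy genes. Among close relatives of the 37 genes, 6 of 8 tested rose and 0 fell. ATG16L2, the paralog of ATG16L1, had the largest rise of the list, from 2.74, 2.39 and 2.41 CPM to 17.9, 15.3 and 16.5 CPM (log2 change 2.72, adjusted p = 3.09e-10 in edgeR), or 2.88 with the offsets. Among 14 genes of fusion with the lysosome 7 rose and 1 fell. Among 16 tested receptors of organelles and their partners 9 rose and 5 fell. CCPG1, a receptor for endoplasmic reticulum, rose by 1.91, or 1.37 with the offsets. The largest falls were those of PHB2 (-1.03) and BNIP3 (-0.78), receptors on mitochondria, and of EI24 (-0.63), a protein of the endoplasmic reticulum. With the offsets these 3 were at -0.69, -0.67 and -0.48.

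Among 17 regulators 9 rose and 4 fell, beside 36.1% higher and 32.4% lower among all genes. The transcription factors TFEB (log2 change -0.29, adjusted p = 0.0707 in edgeR), TFE3 (0.00, adjusted p = 0.98 in edgeR) and FOXO3 (0.01, adjusted p = 0.961 in edgeR), which are known to drive autophagy genes, did not pass. With the offsets TFE3 passed as higher (0.28, adjusted p = 0.000533 in edgeR), while TFEB (-0.07) and FOXO3 (-0.01) did not pass. FOXO1 rose from 17.3 ± 0.427 to 26.2 ± 0.567 CPM (SD, n = 3 each; log2 change 0.60, adjusted p = 4.44e-05 in edgeR). In the list of organelle receptors and their partners, TBK1, the kinase of OPTN, rose from 8.16, 12.7 and 12.3 CPM to 32.4, 28.3 and 31.5 CPM (log2 change 1.46), or 1.04 with the offsets. PRKAA1 rose by 0.92, or by 0.28 with the offsets.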

How the data were processed

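Per the file headers, the table the authors deposited holds gene counts of 6 libraries as whole numbers, the exonic length of each gene, and FPKM. Which aligner, counter and strand setting were used is not given in the sources used here. GRCm38, mm10 and hg18 appear with no role among the submitters' processing notes, while 96.3% of identifiers were found in GENCODE 29 (GRCh38) and 99.9% of those overlap its coordinates. Deposited FPKM equalled count per exonic length and library total within 0.005 in 5 columns. A further per-sample column (1, FPKM with no replicate number) was not used, and FPKM was computed from counts.

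Members and lists were chosen with earlier results of these data known. Genes were kept by filterByExpr (minimum count 10, total 15), scaled by TMM and tested with edgeR 4.0.16 (R 4.3.3), quasi-likelihood, with Benjamini-Hochberg adjustment over 14990 genes. Standard errors are the log2 change over the root of F. Every member is named. Of the other pathway genes those with the 3 largest rises and falls among calls are named, except 1 that is not reported here, and PRKAA1, FOXO1, FOXO3, TFEB, TFE3 and TBK1 were chosen after their values were seen. On simulated counts with the library sizes of this comparison (14891 genes) recovery by edgeR was 74% at a 1.5-fold change and 98% at a 2-fold change, and 12 unchanged genes were called. The simulation gave every gene the same dispersion, changed only 100 better counted genes per fold size and held no GC effect. Its rates therefore need not hold for the real libraries. Offsets came from a smooth fit of each library on GC content and length (mgcv 1.9.3). Alternatives used limma 3.58.1 and DESeq2 1.42.0.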

Additional observations from a re-analysis of the deposited data

How the results depend on the processing

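Of the 26 rises and 3 falls among the 35 tested autophagy genes, the rises numbered 23 to 31 over 18 alternatives, and the median log2 change of the genes was 0.29 (GC and length offsets) to 0.83 (TPM-like scaling). The 3 falls became 1 (SQSTM1) with library totals, TPM-like scaling, limma on log2(FPKM + 1) or log2(FPKM + 0.1), and GC and length offsets, with or without the replicate block. Leaving out each library gave 3 to 5 falls, with 5 without control replicate 2, when WIPI2 and ATG4B also passed, and 23 to 27 rises. Without control replicate 1, which stood apart, 27 rose and 3 fell. Over all genes, TPM-like scaling gave 2956 falls in place of 4852. The 10 falls among the other autophagy genes became 5 with library totals or limma on either FPKM scale, and 3 with TPM-like scaling. Library totals moved the median log2 change of all genes from 0.05 to 0.25 and TPM-like scaling to 0.34, so all changes are relative to TMM. The share of calls that were higher over all genes was 52.7% with TMM, 65.7% with library totals, 71.6% with TPM-like scaling and 65.1% and 65.3% with limma on FPKM.

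Signs turned for 9 genes, of which ATG3, ATG12, ATG4C and GABARAP had been called. WIPI2 was at 0.05 with library totals and both FPKM scales, 0.15 with TPM-like scaling and 0.01 with quantile normalization. ATG9A was at 0.14, 0.23 and 0.10 with library totals, TPM-like scaling and quantile normalization, 0.13 with both FPKM scales, 0.21 with offsets, 0.20 with offsets and block, and 0.01 without knockdown replicate 1. ATG4B was at 0.06 with library totals and both FPKM scales, 0.16 with TPM-like scaling, 0.07 with quantile normalization and 0.08 with offsets, with or without the block. ATG3 was at -0.08 and ATG12 at -0.06 with offsets (-0.08 and -0.07 with the block), ATG4C at 0.00 with offsets and GABARAP at 0.02 with TPM-like scaling. ATG7 was at -0.02 with quantile normalization, -0.05 without control replicate 2 and -0.08 without knockdown replicate 2, and ATG4D at -0.02 without control replicate 2; over the libraries left out, ATG4D ranged from -0.02 to 0.19, ATG7 from -0.08 to 0.16 and ATG9A from -0.15 to 0.01. The cause was not tested.

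No pairing by replicate number was visible: deviations of same-numbered libraries from their group means correlated at -0.09, -0.15 and 0.04, and control library 1 correlated best with knockdown library 2 (0.16). With 3 libraries per group such correlations cannot tell whether the libraries were prepared in pairs. With the replicate block 25 members rose and 3 fell, with 9844 calls over all genes in place of 10257. The within-number mean of each paralog ratio equals the group difference by construction (2.24 for GABARAPL1 to GABARAP). No paralog ratio changed direction in the alternatives run. For pairs whose groups do not overlap, leaving out a library cannot turn the sign, so only the change of pseudocount could have done so.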
